A study of Homo sapiens with 8 samples.

Results

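Dense clusters of open regions are stretches of the genome where ATAC-seq peaks lie close together. ATAC-seq uses a transposase that cuts accessible DNA and leaves sequencing adapters in it, so peaks of reads mark open chromatin. Peaks of 8 libraries that shared 1 bp or more were merged into regions on chromosomes 1 to 22 and X. Regions with at most 12.5 kb between them were joined, and groups of 5 or more were kept. This gave 1160 member regions in 192 clusters, of 36638 regions in all, or 3.17%. The members were chosen by where the peaks lie, so their number, spacing and calls are descriptions of these lists and carry no test.

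The libraries came from 293T cells, a human embryonic kidney line carrying the SV40 large T antigen, whose chromosome copy numbers are uneven. All 8 groups share that line, crosslinking, permeabilisation, tagmentation and exposure to Q Sepharose, an anion exchanger that binds negatively charged material until salt displaces it. FT is what the resin did not hold, and G20, G100, G200, G300, G500, G700 and G1000 are the eluates at 20, 100, 200, 300, 500, 700 and 1000 mM NaCl. Per the labels the washes followed one another on the same resin. Each is 1 library with no replicate, so no difference between them has a replicate check. In the deposited lists G200 peaks are labelled G50_200 and FT peaks GL, whereas groups were taken from the sample titles. Peak lists held between 8102 (G700) and 22807 (FT) peaks. An open region with fewer reads and one open in fewer cells cannot be told apart in bulk material.

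Accessible regions are grouped along the genome for several reasons known from other work. Gene families that arose by duplication sit side by side, each with its own promoter. Transfer RNA (tRNA) genes, the 5S ribosomal RNA genes and other short RNA genes are read by RNA polymerase III, often from promoter elements inside the gene, and many stand in arrays. HOX genes, which encode homeodomain transcription factors that pattern the body axis, and the replication-dependent histone genes, which make the histones of newly copied DNA, are compact families read by RNA polymerase II. Macrosatellites such as DXZ4 on the X chromosome are tandem repeats of long units, and DXZ4 binds the insulator protein CTCF on the inactive X. Locus names given below to hg19 intervals rest on general knowledge of that build, since no annotation of it was used here.

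Promoters of the histone cluster on chromosome 1, of the HOXA cluster and of a gene beside DXZ4 are shown as examples. All 8 lists called 6 of 8 members in the histone cluster, 1 of 11 in HOXA and 12 of 16 in DXZ4, against 11.4% of all regions. The histone and DXZ4 clusters were among the 5 named for most such members, so their contrast with HOXA follows in part from the choice. The promoters are the 250 bases before the start of each gene in RefSeq (GRCh38.p14), on the gene's strand. Capitals mark CCAAT, the letters of the CCAAT box, or its reverse complement ATTGG, and TATAAA, the letters of a TATA box, or its reverse complement TTTATA.
H3C13: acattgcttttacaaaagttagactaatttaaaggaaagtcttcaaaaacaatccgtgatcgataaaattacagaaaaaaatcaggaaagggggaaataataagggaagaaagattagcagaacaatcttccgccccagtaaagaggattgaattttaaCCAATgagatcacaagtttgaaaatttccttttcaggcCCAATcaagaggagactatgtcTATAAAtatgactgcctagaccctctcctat
H3C14: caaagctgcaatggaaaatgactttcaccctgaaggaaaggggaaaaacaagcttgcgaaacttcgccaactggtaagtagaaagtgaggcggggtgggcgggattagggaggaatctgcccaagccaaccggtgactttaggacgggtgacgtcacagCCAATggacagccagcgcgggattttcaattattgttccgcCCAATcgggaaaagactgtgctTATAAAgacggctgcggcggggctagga
H2AC18: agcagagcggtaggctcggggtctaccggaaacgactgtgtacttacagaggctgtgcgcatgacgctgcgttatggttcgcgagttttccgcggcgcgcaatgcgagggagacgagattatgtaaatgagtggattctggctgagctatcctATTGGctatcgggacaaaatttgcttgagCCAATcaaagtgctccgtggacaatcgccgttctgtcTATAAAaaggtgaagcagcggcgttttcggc
H4C14: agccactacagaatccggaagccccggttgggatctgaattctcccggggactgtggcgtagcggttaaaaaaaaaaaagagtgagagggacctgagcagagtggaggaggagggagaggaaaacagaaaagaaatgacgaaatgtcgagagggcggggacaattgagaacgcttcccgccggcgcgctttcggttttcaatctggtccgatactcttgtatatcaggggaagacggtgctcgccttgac
HOXA9: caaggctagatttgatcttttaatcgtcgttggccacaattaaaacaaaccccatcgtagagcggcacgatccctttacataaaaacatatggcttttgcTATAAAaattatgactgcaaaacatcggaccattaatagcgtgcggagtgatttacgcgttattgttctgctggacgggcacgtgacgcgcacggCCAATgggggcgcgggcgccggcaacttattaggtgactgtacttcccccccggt
HOXA7: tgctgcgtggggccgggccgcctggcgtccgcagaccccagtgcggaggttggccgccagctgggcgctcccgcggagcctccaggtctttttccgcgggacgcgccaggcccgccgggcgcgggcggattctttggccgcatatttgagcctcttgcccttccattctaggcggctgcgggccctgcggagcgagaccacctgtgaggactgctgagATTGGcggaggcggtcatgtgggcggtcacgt
DANT1: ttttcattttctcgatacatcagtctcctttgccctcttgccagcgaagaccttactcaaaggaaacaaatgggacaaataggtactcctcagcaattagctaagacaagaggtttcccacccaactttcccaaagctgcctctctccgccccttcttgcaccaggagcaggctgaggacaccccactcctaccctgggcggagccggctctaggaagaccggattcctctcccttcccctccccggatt

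Of all 35116 promoters in that table, 32.0% held CCAAT and 10.7% TATAAA on either strand, and the median number of CG pairs was 11. All 8 histone genes looked up were found, of which 6 held CCAAT and 5 TATAAA. Their CG pairs ran from 3 in H3C13 to 22 in H2AC18, with a median of 15.5. Of 10 HOX genes looked up, 8 were found, with 9 promoters, of which those of HOXC4 and HOXC5 are the same sequence. CCAAT stood in 8 of those and TATAAA in 3, and CG pairs ran from 11 to 28 with a median of 20. The promoters of DANT1 and DANT2, the transcripts that flank DXZ4, held neither word and had 7 and 8 CG pairs. These are matches of letters, and no peak could be placed on a promoter because the peaks are in another build. H4C14 and H4C15 share a run of 250 bases, H2AC18 and H2AC19 of 249, and H3C14 and H3C15 of 246. Reads from such near-identical copies cannot be assigned to 1 of them, so which copy a histone peak belongs to is uncertain.

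Most clusters were small. Of the 192, 116 had 5 regions, 38 had 6 and 18 had 7, and 20 had 8 or more. The 12 clusters with 10 or more held 160 members, and the largest had 21. Just outside the rule were 301 groups of 4, with 1204 regions. The widest gap inside a cluster was 12497 bp and the narrowest gap left open was 12503 bp. Along all chromosomes 304 gaps fell within 500 bp below the limit and 301 within 500 bp above it, so the gaps show no break there. The median gap between neighbouring members was 5418.5 bp, against 35079 bp between all neighbouring regions, a difference the rule itself makes.

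Clusters spanned 7496 to 107802 bp, with a median of 31235 bp and quartiles of 24295.5 and 39136 bp, and 6.13 Mb in sum. Peaks covered 11.9% of that span, or 0.732 Mb, and between 4.73% and 28.9% of single clusters. Members were a little wider than regions in general, with a median of 568.5 bp against 529 bp. Of the members, 19 (1.64%) were 1500 bp or wider, against 0.988% of all regions.

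**Figure D1:**
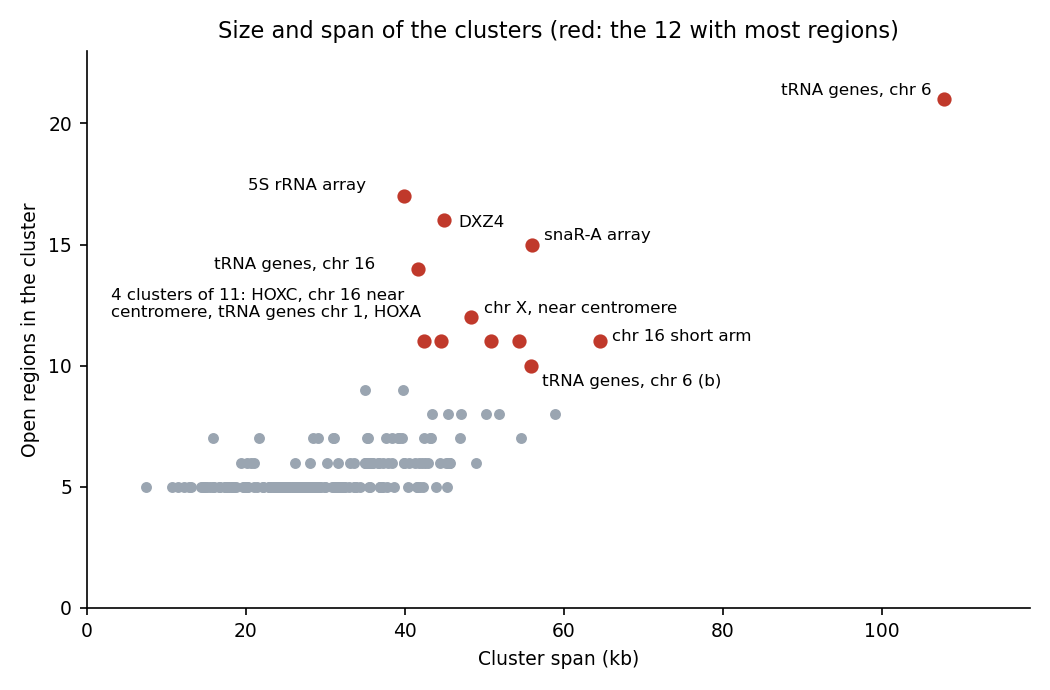
Each point is 1 of the 192 clusters, with its span in kb on the x axis and its number of open regions on the y axis, and red points are the 12 clusters with most regions. The tRNA gene cluster on chromosome 6 stands apart with 21 regions over 108 kb, and 172 clusters have 5 to 7 regions.

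Clusters were found on 22 chromosomes, with none on chromosome 21. Chromosome 1 had 32 clusters with 190 members, or 4.87% of its regions. Chromosome 6 followed with 20 clusters and 132 members (5.00%), chromosome 19 with 19 and 115 (8.41%) and chromosome 5 with 16 and 88 (4.29%). These 4 chromosomes held 45.3% of the clusters and 27.2% of all regions. Chromosome 19, the most gene-dense human chromosome, had the highest share of its regions in clusters. Chromosome X had 10 clusters with 75 members (5.85%) and chromosome 16 had 8 with 63 (6.17%). Chromosome 4 had 2 clusters with 12 members, or 0.57% of its regions. Copy number of the line's chromosomes can change how many peaks pass a threshold, and its part in these counts was not tested.

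Every list called members more often than it called regions in general, by a few percentage points. FT called 66.2% of the members (95% exact binomial interval 63.4 to 68.9, counting error only) and 61.6% of all regions. For the washes the share was 58.4% of members and 52.5% of regions in G20, 39.7% and 35.7% in G100, 50.3% and 43.2% in G200, and 57.7% and 53.2% in G300. It was 32.4% and 28% in G500, 25.9% and 21.8% in G700, and 32.0% and 27.6% in G1000. Longer lists called more of both, although G20 called more members than the slightly longer G300 list. With lists of equal length, the 8102 top peaks of each by −log10 q, the members' share was 25.9% (G700) to 29.1% (G20), against 21.8% to 21.9% of all regions. At that length the intervals of all 8 libraries overlapped one another.

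**Figure D2:**
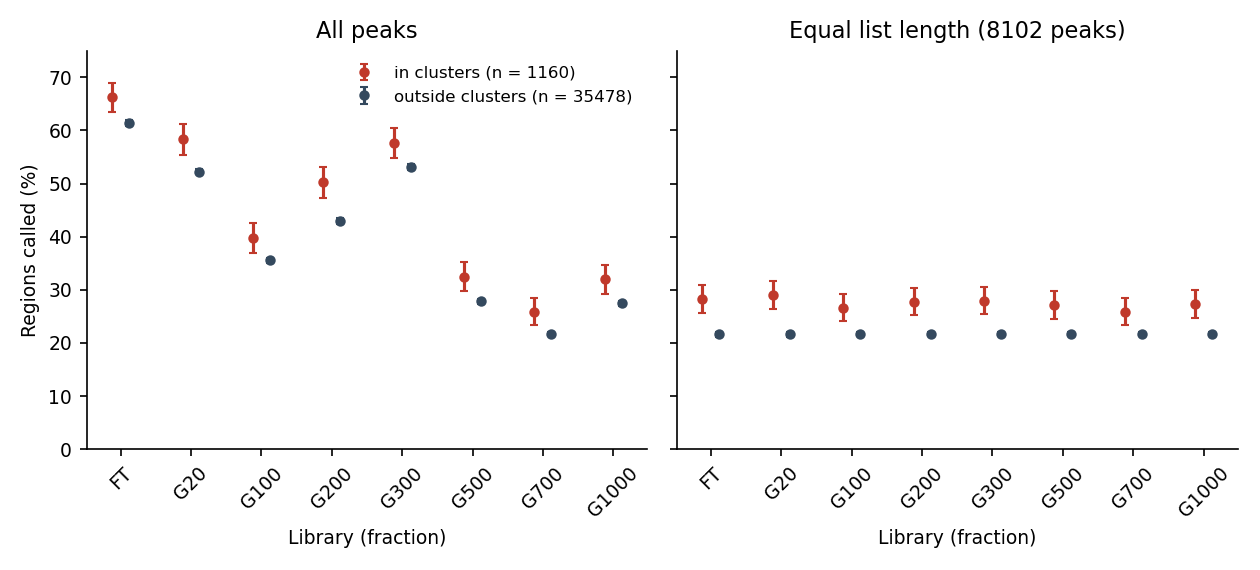
Percent of regions called by each library's peak list (y axis, %) for the 1160 members (red) and the 35478 regions outside clusters (dark), with all peaks on the left and 8102 peaks per list on the right. Bars are 95% exact binomial intervals, and the red points lie above the dark ones in all 8 libraries, between 25.9% and 29.1% at equal list length.

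All 8 lists called 164 members, or 14.1%, against 11.4% of all regions. A single list called 399 members, or 34.4%, against 40.8% of all regions. Among those 399, FT called 33.1%, G20 18.8%, G200 and G300 17.0% each, G100 5.51%, G500 3.01%, and G700 and G1000 2.76% each. Over all 14952 single-list regions the split was much the same, at 28.98% for FT, 17.96% for G20, 15.6% for G200, 20.7% for G300, 6.84% for G100, 3.77% for G500, 2.29% for G700 and 3.799% for G1000. Peaks on members were also somewhat stronger, with a median −log10 q in FT of 6.79 against 5.89 for all regions that FT called. In G300 the medians were 6.70 and 5.79, in G700 5.28 and 5.06, and the members' median was the higher in the other 5 lists too. A −log10 q is the peak caller's adjusted significance of a peak against its local background, as the authors deposited it.

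Within a cluster, calls were mixed. Of the 192 clusters, 126 had at least 1 call in every list. A member called in all 8 lists was present in 97 clusters and absent from 95, and in 8 clusters such members were at least as many as the rest. FT had a call in all clusters, whereas G300 missed 1 cluster, G20 missed 2, G100 and G200 missed 11 each, G500 missed 26, G1000 missed 33 and G700 missed 46. The counts went with list length, from the longest list (FT) to the shortest (G700), with G100 and G200 tied.

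Clusters rebuilt without a list can be set against that list, which then had no part in choosing them. The rebuilt sets differ in size, with 117 clusters over 3.85 Mb without FT and 151 over 4.88 Mb without G20. Without G500 there were 185 over 5.97 Mb, and without G1000 185 over 5.91 Mb. At equal list length the spans ran from 0.791 Mb without G700 to 0.860 Mb without G20. A longer span can hold more peaks, and its part in the shares below was not tested. Of FT's peaks 2.18% lay inside the clusters of the other 7 lists, and the share was 2.81% for G20, 3.29% for G100, 2.85% for G200, 2.75% for G300, 3.57% for G500, 3.59% for G700 and 3.51% for G1000. Over the 7 washes the share had a Spearman's rho of 0.64 with NaCl (exact permutation p = 0.139, two-sided, adjusted p = 0.197 over 4 tests). Pearson's r was 0.71 (exact permutation p = 0.0754, adjusted p = 0.197). With G700 and G1000, whose salt lies farthest from the median, left out, r became 0.54 (exact permutation p = 0.333). At equal list length the share was 1.17% to 1.46% and the sign turned, with a rho of −0.57 (exact permutation p = 0.200, adjusted p = 0.200) and an r of −0.60 (exact permutation p = 0.148, adjusted p = 0.197). No relation of cluster membership with salt passed the threshold, and its direction depended on list length.

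The largest cluster lay on chromosome 6 at hg19 chr6:28677885-28785686, in the tRNA genes between the histone genes and the major histocompatibility complex. Its 21 regions spanned 107802 bp, with midpoints 782 to 12387.5 bp apart. FT called 15 of them, G20, G200 and G300 13 each, G100 10, and G500, G700 and G1000 8 each. Of all regions FT called 61.6%, G20 52.5%, G200 43.2%, G300 53.2%, G100 35.7%, G500 28%, G700 21.8% and G1000 27.6%. Longer lists thus called more of both. All 8 lists called 4 members and a single list called 6, where 11.4% and 40.8% of all regions were so called. The strongest member, at 28770338 to 28771185, had a −log10 q of 21.3, 12.8 and 7.54 in FT, G20 and G100, 16.1 and 13.2 in G200 and G300, and 5.55, 4.45 and 5.30 in G500, G700 and G1000. FT had the highest value and G700 the lowest, and FT is also the deepest library by its genome background and G700 the shortest list. The members called by 1 list had −log10 q values of 2.23 to 3.77, at the weak end of the cluster.

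In total 8 clusters with 84 members lay in the windows named here for tRNA genes, on chromosomes 1, 5, 6 and 16. All 8 lists called 15 of those members (17.9%), and a single list called 27 (32.1%), against 11.4% and 40.8% of all regions. FT called 59, G20 52, G100 42, G200 47, G300 57, G500 32, G700 27 and G1000 32 of the 84. As shares these were 70.2%, 61.9% and 50% for FT, G20 and G100, where 61.6%, 52.5% and 35.7% of all regions were called. They were 56.0% and 67.9% for G200 and G300, against 43.2% and 53.2%, and 38.1%, 32.1% and 38.1% for G500, G700 and G1000, against 28%, 21.8% and 27.6%. Members called in more lists count in each of these shares. In the RefSeq table (GRCh38.p14) 155 of 465 tRNA genes (33.3%) are on chromosome 6, 98 (21.1%) on chromosome 1, 33 on chromosome 17, 26 on chromosome 16 and 18 on chromosome 5. Chromosome 17 has 9 clusters, none of them named for tRNA genes here, and chromosome 5 has 2 so named. Since names rest on general knowledge, an unnamed cluster may hold tRNA genes too. The cluster at chr1:161390472-161441288 had strong members. The region at 161438828 to 161440253 had 166, 133 and 117 summit reads in FT, G20 and G100, 106 and 150 in G200 and G300, and 89, 49 and 73 in G500, G700 and G1000. That at 161424167 to 161425533 had 166, 130, 105, 101, 162, 92, 63 and 75 in the same order. Summit reads are the reads piled up at the top of a peak, recovered from the fold and the p-value. Of its 11 regions 5 had a call in all lists and 3 in only 1. It was among the 5 clusters named for most members called in all lists.

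DXZ4, at chrX:114960297-115005187, was called in nearly every list. FT, G20, G100, G300 and G500 called all 16 members, G200 14, G700 13 and G1000 12. The last 3 are 87.5%, 81.25% and 75%, against 43.2%, 21.8% and 27.6% of all regions. All 8 lists called 12 members (75%) and a single list called 0, against 11.4% and 40.8% of all regions. The cluster was named partly for having many members called in all lists. Held to equal length, the lists called 16, 15 and 16 of the 16 members in FT, G20 and G100, 14 and 16 in G200 and G300, and 16, 13 and 12 in G500, G700 and G1000. Each list then called 21.8% to 21.9% of all regions. The regions stood at regular intervals, with a median of 2979.5 bp between midpoints and 13 of 15 intervals within 100 bp of 3000 bp. The last member, at 115003749 to 115005187, was the strongest, with a −log10 q of 103, 96.5 and 45.4 in FT, G20 and G100, 79.7 and 74.8 in G200 and G300, and 54.6, 32.2 and 32.6 in G500, G700 and G1000. The neighbour before it, at 115001692 to 115002428, had 60.4 in FT and 75.4 in G300. The other 14 members lay between 9.59 and 34.8 in FT and between 11.3 and 26.9 in G300. The fourth and the fourteenth members, at 114969255 to 114969746 and 114999244 to 114999678, were called in the same 5 lists and missed in G200, G700 and G1000. Repeat units of DXZ4 are nearly alike, so reads of 1 unit may be placed in another, and how such reads were handled is not given in the sources used here.

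The 5S ribosomal RNA array, at chr1:228744226-228784142, held 17 members in 39917 bp. With all peaks, the lists up to G500 called its members at about the share of all regions or above it. G700 and G1000 called them below that share. None was called in all 8 lists, and G1000 called 0 of 17. FT and G20 called 11 each, G300 10, G100 9, G200 7, G500 5 and G700 2. The share was 64.7% in FT, 41.2% in G200 and 29.4% in G500, against 61.6%, 43.2% and 28% of all regions, and 11.8% in G700 against 21.8%. G1000 called 27.6% of all regions. At equal list length FT and G20 called 1 each, G100 3, G200 2, G300 4, G500 4, G700 2 and G1000 0 of the 17. Each list then called 21.8% to 21.9% of all regions. FT and G20, above the share of all regions with all peaks, were thus below it at that length. The members were weak, with a highest −log10 q of 9.50 and medians of 4.87 in FT and 4.08 in G20. Members called in FT had 30 to 41 summit reads, while those of the snaR-A array, described below, had 14 to 31 with a median −log10 q of 8.10. The last member, at 228783138 to 228784142, was called in 7 lists with 38, 31 and 22 summit reads in FT, G20 and G100, 26 and 33 in G200 and G300, and 26 and 18 in G500 and G700. RefSeq lists 17 RNA5S genes on chromosome 1 of GRCh38.p14 with a median of 2241 bp from start to start. Of the 16 intervals between members, 9 lay within 250 bp of a multiple of that distance. The genes of the array are nearly identical copies, so which unit carries a peak is uncertain, and the array in cells is known to be longer than in the genome build.

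The snaR-A array, at chr19:50595726-50651677, encodes short noncoding RNAs that bind nuclear factor 90 and are read by RNA polymerase III. G200 called 13 of its 15 members, more than any other list, with G20 at 11, G500 at 9, FT and G300 at 8, G100 at 5, G700 at 3 and G1000 at 2. The share was 86.7% in G200, 73.3% in G20 and 60% in G500, against 43.2%, 52.5% and 28% of all regions. It was 53.3% in FT and in G300, against 61.6% and 53.2%. In G100, G700 and G1000 it was 33.3%, 20% and 13.3%, against 35.7%, 21.8% and 27.6%. At equal list length G200 still called most, with 10, against 9 in G500, 8 in G300, 7 in G20, 4 in FT and G100, 3 in G700 and 2 in G1000. Each list then called 21.8% to 21.9% of all regions. Of the 5 members called by a single list, 3 were called by G200 and 2 by G20. The first member, at 50595726 to 50596335, had 32 summit reads in G200, against 22 in FT, 19 in G20, 18 in G300, 17 in G500 and 15 in G100, with no call in G700 and G1000. The member at 50626162 to 50626893 had 36 in G200, 23 in FT, 20 in G20, 21 in G300, 14 in G500, 13 in G100 and 11 in G700. Only the members at 50615621 to 50616149 and 50650856 to 50651677 were called by all 8 lists. Of the 14 intervals, 4 lay within 250 bp of a multiple of 5337 bp, the median distance between SNAR-A genes in RefSeq. With 1 library per fraction, and the peak names of the G200 list at odds with its title, this excess in G200 is a count in that list alone.

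**Figure D3:**
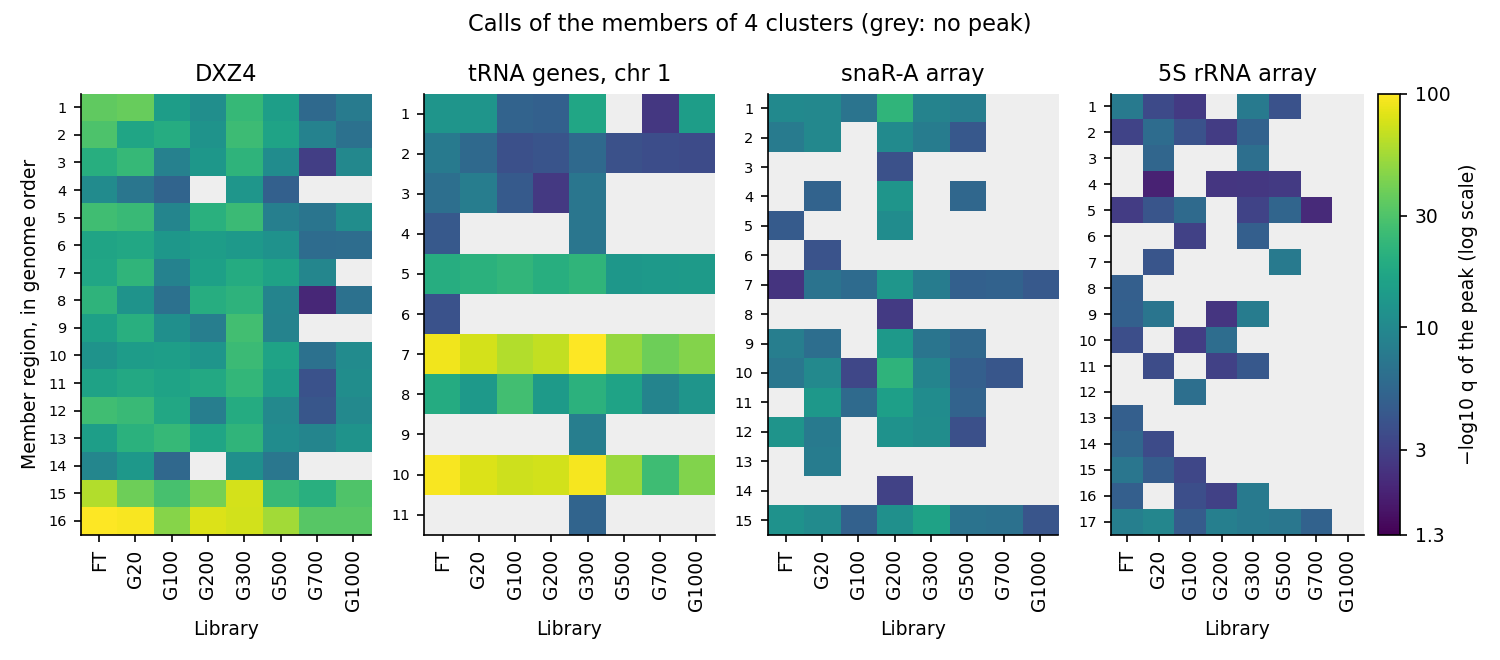
Heat maps of −log10 q (colour, log scale) for the members of 4 clusters, with members in genome order down the y axis and the 8 libraries along the x axis, and grey where a list has no peak. DXZ4 is filled in nearly all cells and 5S is sparse, with no call in G1000, while snaR-A has 13 of 15 members called in G200.

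Vault RNA genes, which encode the short RNAs of the vault particle, lay in a cluster of 6 at chr5:140070529-140106129. Which of its members lie on those genes was not examined. All 8 lists called 4 of the 6 members (66.7%), and no member was called by a single list, against 11.4% and 40.8% of all regions. The cluster was named from among those with 3 or more members with reads in all lists, so the first share follows in part from the choice. The first, at 140070529 to 140071468, had a −log10 q of 23.4, 9.60 and 10.8 in FT, G20 and G100, 7.22 and 14.5 in G200 and G300, and 3.42, 8.96 and 11.4 in G500, G700 and G1000. The last, at 140105361 to 140106129, was strongest in G20 at 15.4 and in G1000 at 12.6. TERC, the gene of the RNA template of telomerase, lay in a compact cluster of 5 at chr3:169480761-169491522, of which peaks covered 28.9%. Its last member, at 169490537 to 169491522, was called in 6 lists, with 22, 15 and 15 summit reads in FT, G20 and G100, 10 and 23 in G200 and G300, and 11 in G1000. No member there was called by all lists and none by a single list.

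The histone genes at chr1:149783248-149833414, whose promoters are printed above, had 8 members. All 8 lists called 6 of them (75%), against 11.4% of all regions. FT called all 8, G20, G200 and G300 7 each, and G100, G500, G700 and G1000 6 each. Of all regions FT called 61.6%, G20 52.5%, G200 43.2% and G300 53.2%, while G100 called 35.7%, G500 28%, G700 21.8% and G1000 27.6%. The last member, at 149832188 to 149833414, had a −log10 q of 18.8, 28.6 and 13.3 in FT, G20 and G100, 22.5 and 27.4 in G200 and G300, and 10.7, 16.4 and 15.2 in G500, G700 and G1000. The third, at 149803503 to 149804741, had 20.9 in FT, 19.3 in G300, 12.8 in G700 and 16.5 in G1000. Only the region at 149796245 to 149796589 was called by 1 list, FT, at a −log10 q of 1.44. This cluster was named as 1 of the 5 with most members called in all lists, so that share follows from the choice.

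HOX members were seldom called by all lists. HOXA (chr7:27170503-27224882) and HOXC (chr12:54410680-54453048) had 11 members each, and HOXD had 2 clusters of 5. Of the 32 HOX members, all 8 lists called 1 (3.13%) and a single list called 14 (43.8%), against 11.4% and 40.8% of all regions. FT and G20 called 19 each, G200 17, G300 14, G1000 8, G100 7, and G500 and G700 6 each. The share of 59.4% in FT and in G20 stood against 61.6% and 52.5% of all regions, and 25% in G1000 against 27.6%. It was 21.9% in G100 against 35.7%, 53.1% in G200 against 43.2%, 43.8% in G300 against 53.2%, and 18.8% in G500 and G700 against 28% and 21.8%. G100 called 1 of 11 in HOXA and 1 of 11 in HOXC. The HOXA member called in all 8 lists, at 27183125 to 27184049, had a −log10 q of 8.50, 6.96 and 4.66 in FT, G20 and G100, 5.57 and 12.2 in G200 and G300, and 4.31, 3.92 and 4.82 in G500, G700 and G1000. Another HOXA member, at 27205133 to 27205763, reached 22.04 in G200, against 9.32 in G20, 7.92 in G300, 5.96 in FT, 3.45 in G500 and 2.23 in G700. In HOXC the member at 54411224 to 54412215 was called in 7 lists, with 8.64, 6.06 and 3.02 in FT, G20 and G100, 3.03 and 6.02 in G200 and G300, and 3.47 and 4.29 in G500 and G1000. With each list held to 8102 peaks, 4 (G100) to 8 (G20) of the 32 were called per list, where 21.8% to 21.9% of all regions were. The median −log10 q of HOXA members was 5.79 in FT, 6.23 in G20 and 5.90 in G300, close to the 5.89, 6.04 and 5.79 of all regions. In the other 5 lists it was 3.18 (G700) to 4.66 (G100), below the 5.06 to 5.45 of all regions. These medians rest on few members, with 1 called in G100, 2 each in G500 and G1000, 3 in G700 and 6 in G200.

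**Figure D4:**
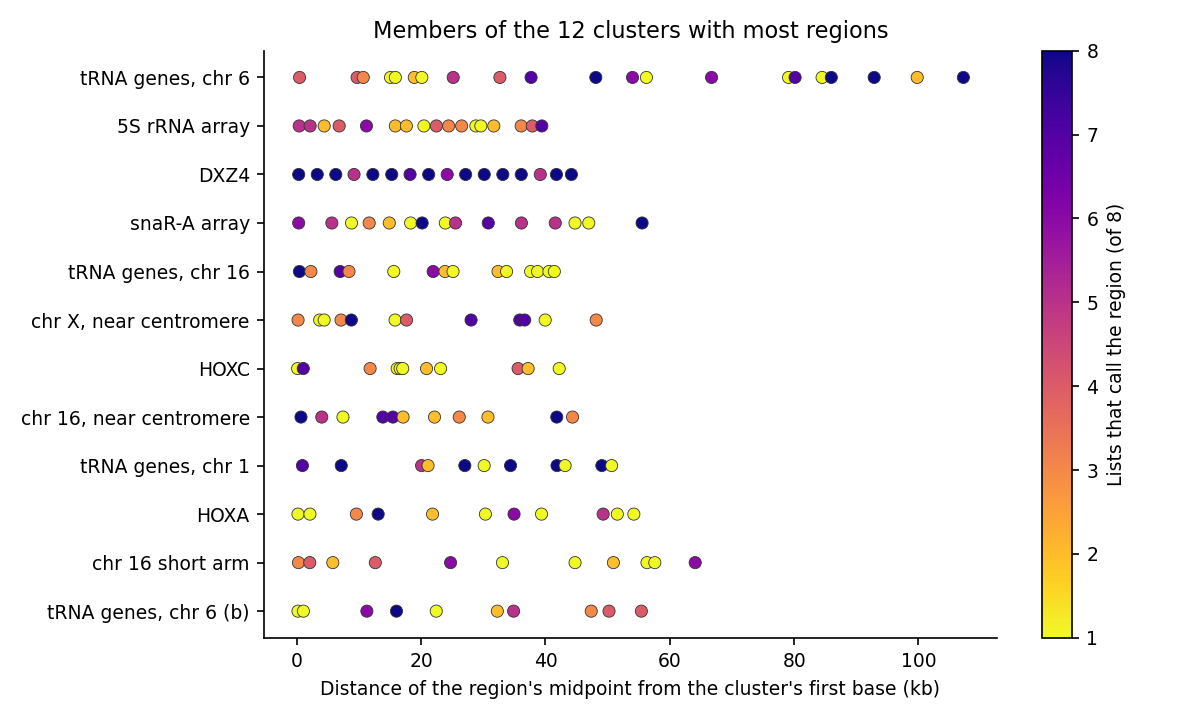
Members of the 12 clusters with most regions, by the distance of the region's midpoint from the first base of its cluster (x axis, kb), coloured by how many of the 8 lists call it. DXZ4 shows 16 evenly spaced members, 12 of them called by all 8 lists, while HOXA and HOXC hold 1 and 0 such members.

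A set of 6 clusters with 44 members lay within 1 Mb of the longest interval without a peak on their chromosome, which on most chromosomes is the centromere. Those on chromosomes 2, 10 and 11 held the strongest peaks among the named clusters. The cluster at chr2:92290526-92325583 had 9 members, 6 of them called in all 8 lists, and was named partly for having many such members. Its last member, at 92324329 to 92325583, had a −log10 q of 233, 166 and 131 in FT, G20 and G100, 98.6 and 184 in G200 and G300, and 121, 107 and 116 in G500, G700 and G1000. In the cluster at chr11:51569659-51591350 the last member, at 51590287 to 51591350, had 348, 253 and 191 summit reads in FT, G20 and G100, 117 and 316 in G200 and G300, and 187, 188 and 182 in G500, G700 and G1000. At chr10:42384894-42400756 the first member, at 42384894 to 42385714, had 292, 177 and 241 in FT, G20 and G100, 73 and 216 in G200 and G300, and 123, 161 and 180 in G500, G700 and G1000. G200 was the lowest of the 8 libraries at each of these members, and it also had the lowest genome background, 0.2393 reads against 0.6622 in FT. The first member at chr16:46391030-46435537, 46391030 to 46392370, had 97, 72, 98, 30, 94, 44, 65 and 71 in the order from FT to G1000, with G200 again lowest. This did not hold at every member, since in the chromosome 2 cluster the member at 92319860 to 92320727 had 80 in G200 and 70 in G700. Sequence next to centromeres is repetitive in hg19, and the handling of reads that map to many places is not given in the sources used here, so its part in these reads was not tested.

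Summed reads were compared for members called in all 8 lists, with the libraries' shares at 3988 such regions outside clusters as the expected value. For all 164 members the ratio of reads to expected reads was 1.09 in FT (95% Poisson interval 1.07 to 1.12, counting error only) and 0.839 in G200 (0.817 to 0.862). It was 0.934 and 1.04 in G20 and G100, 1.01 in G300, and 1.06, 1.01 and 1.02 in G500, G700 and G1000. Most of the G200 deficit lay beside the peak-free stretches. There 19 members gave a G200 ratio of 0.562 (0.531 to 0.595), with 1.17 in FT, 0.842 in G20, 1.13 in G100, and 1.14 in G700 and in G1000. The other 145 members had a G200 ratio of 0.985, and 0.934 to 1.05 in the 8 libraries. They include 1 member of the cluster near the X centromere, with a G200 ratio of 0.37 (0.229 to 0.566). The longest peak-free stretch of X starts at 141237973, far from that cluster, so this split does not set all members near centromeres apart. Regions outside clusters but beside the same kind of stretch had a G200 ratio of 0.744 over 53 regions, so low G200 reads were not particular to clusters. When libraries were scaled by their genome background instead, the G200 ratio of all members was 1.28 and that of FT 0.831, and the 19 members had a G200 ratio of 0.861. On that scale the other 145 members ran from 0.8003 in FT to 1.51 in G200 (1.46 to 1.55). The order of the libraries in the summed reads therefore depends on the scale, while in G200 the ratio at the peak-free stretches was below that of all members on both scales.

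Single clusters with 3 or more such members gave ratios of the same kind. Of the clusters below, those on chromosomes 2, 10 and 11 and the vault RNA cluster were named because their ratios range most, so their values are descriptions of clusters picked for extremes. At chr10:42384894-42400756 the ratio was 1.44 in G100 (1.34 to 1.55) and 0.53 in G200 (0.47 to 0.59). It was 0.63 in G200 at chr2:92290526-92325583 and 0.54 at chr11:51569659-51591350, where FT had 1.22. DXZ4 had 1.12 in FT (1.05 to 1.18), 1.102 in G300 (1.04 to 1.17), 0.92 in G200 (0.853 to 0.995), 1.17 in G500 (1.08 to 1.26), 0.79 in G700 (0.71 to 0.87) and 0.83 in G1000 (0.76 to 0.91). The tRNA cluster on chromosome 1 had 1.19 in G100 (1.07 to 1.32), 0.90 in G20 (0.815 to 0.997) and 0.85 in G700 (0.73 to 0.98). Histone members had 1.20 in G200 (1.03 to 1.38), and the intervals of the other 7 libraries included 1. Members of the cluster named for vault RNA genes had 1.34 in G1000 (1.03 to 1.72) and 0.74 in G200 (0.54 to 0.99), whether or not they lie on those genes. In the largest tRNA cluster the intervals of all 8 libraries included 1. Spread between libraries of 1 fraction is not known here, so these intervals do not cover replicate error.

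**Figure D5:**
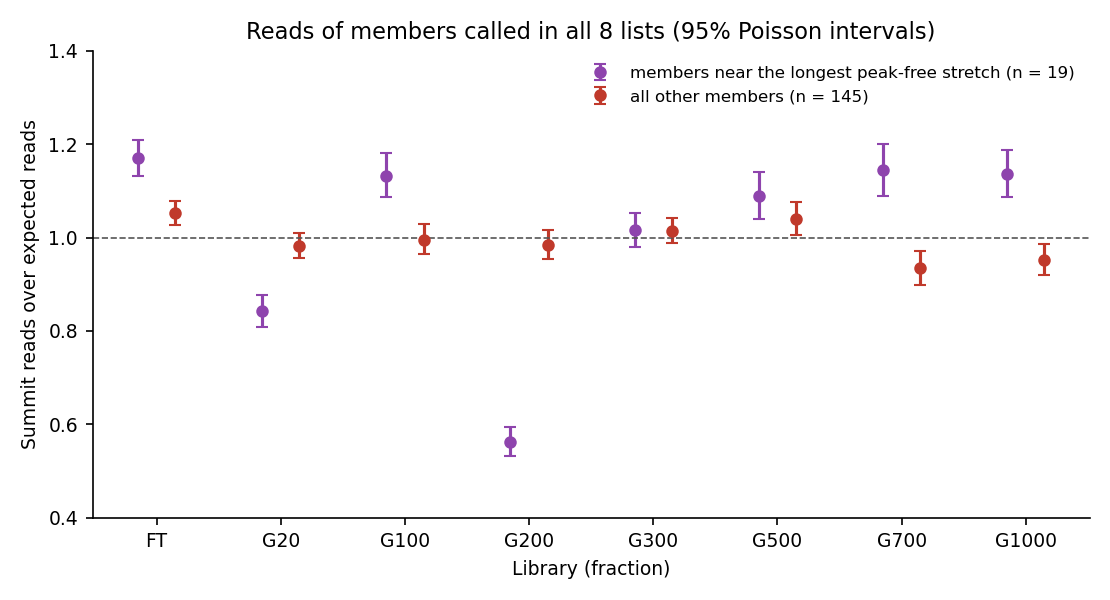
Ratio of summit reads to expected reads (y axis) in each library for the 19 members next to the longest peak-free stretches (purple, within 1 Mb) and the other 145 members called in all 8 lists (red), with 95% Poisson intervals. The purple point of G200 is lowest at 0.562, while the red points stay between 0.934 and 1.05. Scaled by genome background, which is not plotted, the red set runs from 0.8003 to 1.51 and the purple G200 point is 0.861.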

How the data were processed

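Per the submitters' processing notes the tools were Bowtie2 2.2.6 and MACS2 2.2.1, with HOMER, and the builds hg19 and mm10 are listed. Chromosome names in the lists are those of hg19. Not given in the sources used here are read filters, the treatment of multiply mapped reads and the settings of the peak caller. Each list deposited by the authors holds peaks of 1 library with a score, the fold over background (a ratio) and the −log10 of p and of q. Read totals are not in the lists.

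Regions and clusters were built in Python 3.11.15 with pandas 2.3.3 by the rule given above. Calls were recounted with every list held to its 8102 top peaks by −log10 q, the length of the shortest. Summit reads were recovered by solving the fold and the −log10 p for a whole-number pileup within 0.001. Between 99.98% and 100% of peaks had a solution, while 0.4% to 0.8% did with shuffled p-values, and between 98.9% and 99.8% had a single solution. The genome background in those solutions, a relative depth, was 0.2393 reads in G200 to 0.6622 in FT. Both steps were tested on simulated data. Shares have exact binomial intervals and reads Poisson intervals, at 95%, for counting error only. Trends used exact permutation tests (scipy 1.17.1, two-sided, 5040 orders).

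The named clusters are the 12 with most members, the 5 longest, the 5 densest, the 5 with most members called in all lists and, of 12 clusters with 3 or more members with reads in all lists, the 5 whose ratios range most. Other clusters were named by locus. The members and lists were chosen with earlier results of these data known. Names of loci rest on general knowledge, RefSeq (GRCh38.p14) served for sequences and gene spacing, and its coordinates were not used. The alternatives tried were other gaps, list lengths, −log10 q minimums, overlaps, cluster sizes and leaving out each library.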

Additional observations from a re-analysis of the deposited data

How the results depend on the processing

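The number of clusters depended strongly on how they were defined. Against 192 clusters with 1160 members over 6.13 Mb, a stitching gap of 5000 bp gave 18 clusters, 134 members and 0.346 Mb, and one of 25000 bp gave 796, 5242 and 50.9 Mb. A −log10 q of 3 or more gave 88, 554 and 2.86 Mb, equal list length 26, 179 and 0.871 Mb, and regions of 2 or more lists 44, 289 and 1.54 Mb. Clusters of 4 or more gave 493, 2364 and 12.6 Mb, and of 8 or more 20, 226 and 1.02 Mb. Leaving out each library gave 117 to 185 clusters, 722 to 1121 members and 3.85 to 5.97 Mb, lowest without FT.

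The share of members called in all 8 lists was 21.6% at a gap of 5000 bp, 18.4% at a −log10 q of 3, 29.6% at equal list length, 11.9% when merging needed 200 bp, 27.7% for regions of 2 or more lists and 22.1% in clusters of 8 or more. In the same order the single-list share was 23.9%, 26.4%, 16.2%, 43.8%, 0% and 28.8%. With each library left out in turn, when 7 lists remain and the first share is of members called in all 7, the shares were 14.9% to 18.98% and 30.2% to 35.1%. These cannot be set against the share for 8 lists.

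Shares called per list, in the order from FT to G1000, were 70.9%, 63.4%, 51.5%, 55.2%, 62.7%, 46.3%, 36.6% and 35.8% at a gap of 5000 bp, 74.4%, 68.1%, 45.7%, 54.2%, 64.4%, 37.4%, 30.9% and 38.6% at a −log10 q of 3, and 60.0%, 51.4%, 35.7%, 43.7%, 52.2%, 28.5%, 21.9% and 28.4% with 200 bp of overlap. With clusters rebuilt from lists of equal length they were 63.7%, 66.5%, 60.3%, 59.2%, 66.5%, 60.9%, 57.0% and 58.1%, with FT below G20 and G300.

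The rho of the left-out share with NaCl reversed to −0.57 at equal list length, and was 0.71 at a −log10 q of 3, 0.66 without G200 and 0.30 without G700 and G1000. Read ratios under background scaling reversed to 0.831 in FT, 1.05 in G20 and 1.28 in G200, and were 1.07 in G100, 0.991 in G300 and 0.966 in G700. With 20 or more reads they were 1.12 and 0.901 in FT and G20, 1.08 and 0.732 in G100 and G200, and 1.04 in G700. Away from peak-free stretches they were 1.05 in FT, 0.982 in G20, 0.985 in G200, 0.934 in G700 and 0.953 in G1000, and reversed to 0.996 in G100. The values for members near those stretches, and for both sets under background scaling, were chosen after seeing the data. The cause was not tested.

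Of the 22 named clusters, 13 were found at a gap of 5000 bp, 19 at a −log10 q of 3, 14 at equal list length and 16 for regions of 2 or more lists. Without FT 21 were found, without G200 or G300 20, and 22 without each other library. Those with a locus name lost at equal list length were HOXA, HOXC, TERC, the tRNA cluster on chromosome 16 and the smaller named one on chromosome 6. At 5000 bp HOXA, the histone and vault RNA clusters, the tRNA cluster on chromosome 1 and that smaller one on chromosome 6 were lost. No paired analysis was possible because each fraction is 1 library and no test compares groups of samples. The share of members at gene starts was not run, since no annotation of hg19 was used here. Depth limits the weakest calls, since a region missing from a list is not shown to be closed in that fraction.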

Other observations

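Several clusters crowded into single megabases. Between 26000001 and 27000000 on chromosome 6 lay 4 clusters with 30 members, and the next megabase held 3 clusters with 16. On chromosome 12 the megabase from 54000001, which holds HOXC, had 3 clusters with 21 members, and on chromosome 17 that from 7000001 had 3 with 20. Others were the megabase from 1000001 on chromosome 6, with 3 clusters and 18 members, and that from 156000001 on chromosome 1, with 3 and 15.

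Some large or dense clusters have no locus name here. The cluster at chr16:2009176-2073661 had 11 members in 64486 bp, of which FT called 8, G20 7, G200 5, G300 and G1000 4 each, G100 2, G700 1 and G500 0. Over all regions these lists called 61.6% (FT), 52.5% (G20), 43.2% (G200), 53.2% (G300), 27.6% (G1000), 35.7% (G100), 21.8% (G700) and 28% (G500). The cluster at chrX:61683011-61731358, near the X centromere, had 12 members. The member at 61691396 to 61692174 had 114, 60 and 50 summit reads in FT, G20 and G100, 21 and 82 in G200 and G300, and 39, 43 and 49 in G500, G700 and G1000. At chr1:153918016-153963460 3 of 8 members were called in all 8 lists, against 11.4% of all regions. Their read ratio was 1.32 in G200 (1.05 to 1.63). That cluster was named for ratios that range most, among clusters with 3 or more members with reads in all lists. Both values thus follow in part from the choice. The densest cluster, at chr8:636838-644333, had 5 members in 7496 bp, or 6.67 per 10 kb. Its highest −log10 q was 5.36, and it was not found without FT, without G200 or without G300.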
